A study of Mus musculus with 10 samples.

Results

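The collagen genes of the mouse were described in regulatory T cells sorted from melanomas and lymph nodes. They are the protein-coding genes whose symbol is Col, a number, the letter a and a number, and 44 of the 21556 genes in the count table met this rule. By the structures their chains form, 11 are fibrillar, 9 belong to basement membranes and anchoring structures (types IV, VII, XV and XVIII), 6 form the beaded filaments of type VI, 9 are associated with fibrils, 3 form short-chain networks (types VIII and X), 4 are transmembrane and 2 fit none of these classes.

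Collagens are secreted proteins in which 3 chains wind into a triple helix, and every turn of the helix needs a glycine. Fibrillar collagens such as types I, II, III, V and XI assemble into the fibers of connective tissue and cartilage. Types XXIV and XXVII are also classed as fibrillar here. Type IV collagen forms the sheet-like network below endothelial and epithelial cells. Fibroblasts, pericytes, endothelial cells and some tumor cells are the usual sources. T cells are not known as collagen producers, and they meet collagen mainly through integrins and other receptors.

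The cells came from mice of 10 weeks that had been injected with a lymphangiogenic melanoma line, and were taken from the tumor or a lymph node (LN) and sorted on a red fluorescent protein. All 4 groups carry the floxed MHC class II allele. The MHCIIfl/fl mice (control here; 3 LN and 3 tumor libraries) have no Cre. The MHCIIdeltaProx-1 mice (MHCII-deleted here; 2 LN and 2 tumor libraries) carry Cre driven by Prox1, a gene of lymphatic endothelium, so that the deletion is aimed at that cell type. Prox1 is also active in some cells outside the lymphatics, the labels do not say which LN was taken, and they do not say whether libraries of a group come from separate mice. The p-values therefore measure the spread between these libraries, which may be technical. RNA was amplified from 1 ng, and counts carry no molecular identifiers, so intervals and floors cover counting error only.

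Library totals ran from 28539329 to 35736175 counts, with 12825 to 14703 genes detected. Levels are given as CPM (read counts relative to TMM-scaled library sizes), in the order of library number, and a count of 0 allows up to 0.0809 to 0.107 CPM (3 counts). The sorted cells had the markers of their label: Foxp3 stood at 580 to 747 CPM in LN, at 646 to 817 in control tumors and at 349 and 342 in MHCII-deleted tumors, and Cd4 at 1100 to 1200, 1230 to 1420, and 657 and 632. The tumor libraries also held transcripts of other cells. All 10 melanoma markers (such as Pmel, Tyr and Sox10) were detected, summing to 4740, 5680 and 9250 CPM in control tumors and 18800 and 23000 in MHCII-deleted tumors, against 13.4 to 23.6 for LN. Pan-T cell genes (23 of 24 detected, Ptprcap at 0) summed to 19700 to 20000 CPM in control tumors and to 8230 and 9780 in MHCII-deleted tumors.

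The feature that unites the members at the sequence level is the glycine repeat. In the coding sequence it appears as a codon GGN at the first of every 3 codons. All 44 collagens had an unbroken run of at least 20 such repeats, against 19 of 21020 other protein-coding genes, among them Adipoq, C1qb, Marco and Sftpd, which also carry collagen-like stalks. The longest run was 216 to 344 repeats in the fibrillar genes and 30 to 75 in the basement membrane genes, which break the repeat into 11 to 27 runs. One stretch of each kind is shown because the fibrillar and the type IV chains are the ones on which the results below turn. Both are coding sequence of the GENCODE transcripts, with the GGN codons of the repeat in capitals; in Col4a1 the repeat is interrupted.
Col3a1, codons 164 to 193: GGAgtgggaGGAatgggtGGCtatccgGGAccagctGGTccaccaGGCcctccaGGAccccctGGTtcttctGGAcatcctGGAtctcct
Col4a1, codons 151 to 180: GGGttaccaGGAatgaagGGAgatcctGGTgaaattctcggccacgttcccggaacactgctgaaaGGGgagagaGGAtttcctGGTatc

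Promoters were matched by symbol in a RefSeq table (GRCm38.p6) for 35 of the 44 members, giving 38 windows of 250 bases before a start. Col1a1, Col2a1, Col4a3, Col5a2, Col9a3, Col12a1, Col14a1, Col22a1 and Col26a1 had no entry. Searched on both strands, CCAAT (reverse ATTGG) was found in 13 of the 38 windows and in 33.8% of all 32851 promoters. TATAAA was found in 5 windows (12.4% of all), GGGCGG, the core of the Sp1 site, in 22 (32.7% of all), and ACAAT, part of the element bound by Sox factors, in 2 (27.7% of all). The windows of Col3a1 and Col5a1 are shown because both genes take part in the pattern among tumor libraries described below, yet differ in these letters. Matches are in capitals; in Col3a1 an ACAAT and its reverse overlap.
Col3a1, chr1:45311288-45311537, plus strand: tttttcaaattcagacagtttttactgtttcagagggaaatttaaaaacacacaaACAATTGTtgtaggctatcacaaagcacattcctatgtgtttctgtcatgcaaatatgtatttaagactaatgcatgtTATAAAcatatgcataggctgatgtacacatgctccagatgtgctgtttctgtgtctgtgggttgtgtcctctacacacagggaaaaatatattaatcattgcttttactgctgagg
Col5a1, chr2:27886175-27886424, plus strand: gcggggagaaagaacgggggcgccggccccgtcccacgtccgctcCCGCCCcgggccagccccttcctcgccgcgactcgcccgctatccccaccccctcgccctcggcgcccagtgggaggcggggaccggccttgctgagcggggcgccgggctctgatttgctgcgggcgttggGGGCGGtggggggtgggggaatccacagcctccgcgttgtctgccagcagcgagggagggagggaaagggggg
Col3a1 had 1 TATAAA, and Col5a1 had 2 GGGCGG and no TATAAA.

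Several members are neighbors. Col3a1 (chromosome 1, 45311538 to 45349706) and Col5a2 (45374321 to 45503282) lie end to end on opposite strands. Col4a1 (chromosome 8, 11198423 to 11312826) and Col4a2 (11312805 to 11449287) start head to head, and their exons share 22 bases. Col4a4 and Col4a3 on chromosome 1 also start head to head, and Col6a2 and Col6a1 are on the same strand of chromosome 10. Whether counting used strand is not given in the sources used here. Exons of other genes on the opposite strand cover 6.07% of Col9a3 (Tcfl5) and 5.65% of Col4a3, the highest shares among the members, so the levels of these 2 are less certain.

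Collagen transcripts were scarce in LN and abundant in tumor. The 44 genes together summed to 14.6, 10.8 and 17.6 CPM in LN of control mice and to 12.8 and 11.9 in LN of MHCII-deleted mice. In tumor they summed to 660, 5300 and 3080 CPM in control mice and to 1110 and 1590 in MHCII-deleted mice. Every tumor library lay far above every LN library, and the control tumors spanned both values of the MHCII-deleted tumors. In bulk RNA, fewer cells of a type and less RNA per cell cannot be told apart. Fibroblast markers were detected for 12 of 12 genes in both tumor groups, and summed to 124 to 516 CPM in control tumors and 118 and 403 in MHCII-deleted tumors. In LN they summed to 4.24 to 7.31 CPM, with Pdgfrb and Twist1 at 0 in control libraries and Dcn, Lum, Postn and Twist1 at 0 in MHCII-deleted libraries. The part of these cells in the collagen levels was not tested.

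The makeup of the collagen counts differed between the tissues. Fibrillar genes held 70.9, 86.3 and 91.0% of collagen counts in control tumors and 62.4 and 61.7% in MHCII-deleted tumors, against 18.5 to 38.6% in LN. Wilson 95% intervals of these shares were at most 1.21 points wide in tumor, where a library had 21603 to 160356 collagen counts, and 7.17 to 9.13 points in LN, where it had 371 to 526. Basement membrane genes held 18.7, 5.87 and 2.3% in control tumors and 27.2 and 29.2% in MHCII-deleted tumors. Both MHCII-deleted tumors thus had a lower fibrillar and a higher basement membrane share than any control tumor. The shares are parts of the same total, so these are not separate results. With 3 against 2 libraries, an exact two-sided permutation p cannot go below 0.2. In LN, fibril-associated genes held 26.5 to 37.6% and transmembrane genes 16.6 to 33.2%.

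**Figure D1:**
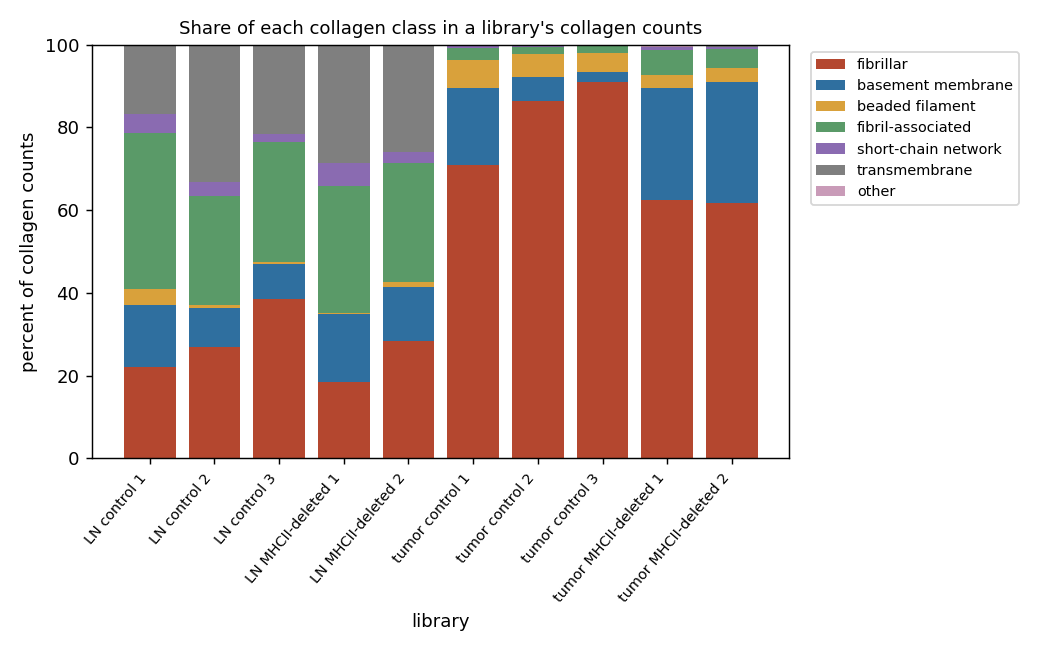
Stacked bars give the percent of a library's collagen counts (y axis, 0 to 100) held by each class of collagen, for the 10 libraries (x axis). The fibrillar share is 18.5 to 38.6% in LN, 70.9 to 91.0% in control tumors and 62.4 and 61.7% in MHCII-deleted tumors, and the basement membrane share is highest in the MHCII-deleted tumors.

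Of the 44 members, 33 passed the filter on low counts, 9 fell below it (Col24a1, Col6a4, Col6a5, Col6a6, Col19a1, Col22a1, Col8a2, Col25a1 and Col28a1) and 2, Col4a6 and Col13a1, had no count in any library. Among the 33, only 12 had 10 or more counts in at least 2 LN libraries, while 31 had this in tumor, and 21 in tumor only. A gene that passed only through tumor had to be higher there, so the counts of called genes in the tissue comparison describe the members and support nothing further. Tests used the edgeR quasi-likelihood model over 13920 genes, and a gene was called at an adjusted p (Benjamini-Hochberg) under 0.05.

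**Figure D2:**
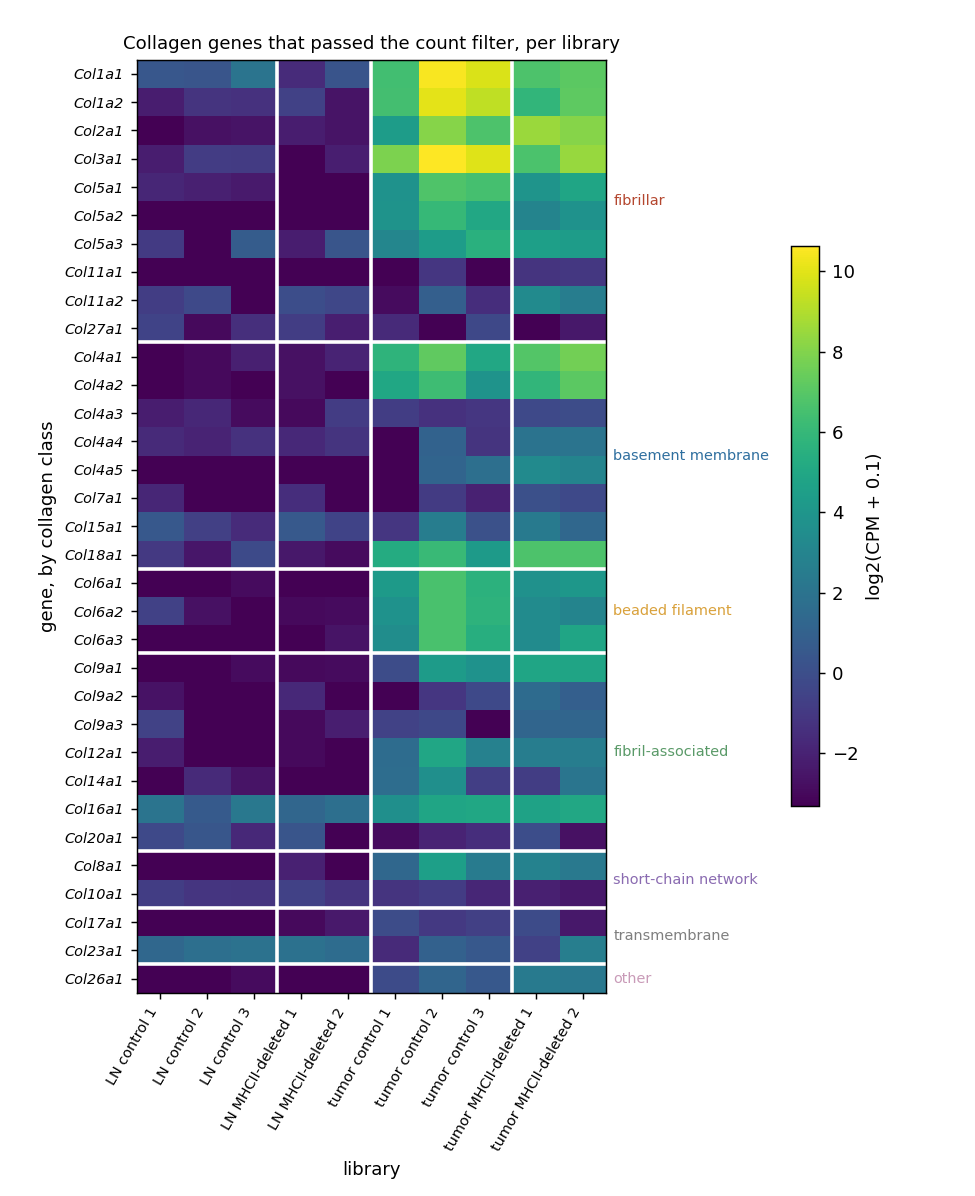
Color gives log2(CPM + 0.1) of the 33 collagen genes that passed the filter (rows, by class) in the 10 libraries (columns). Col16a1 and Col23a1 are visible in all LN columns (1.43 to 4.78 CPM), the control tumor columns are brightest for Col1a1, Col1a2 and Col3a1, and the first MHCII-deleted tumor is brightest for Col2a1 (373 CPM).

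The tissue comparison asks how Tregs of the tumor differ from those of LN. In the control genotype 21 of the 33 collagens were higher in tumor, with all genes called higher at 22.8%, and 0 were lower, with all genes at 16.1%. In MHCII-deleted mice 20 were higher and 0 lower, with all genes at 24.3% and 20.1%. The 20 were also among the 21 of control mice, the exception being Col17a1, a transmembrane collagen of epithelial attachment. No collagen was lower at an unadjusted p under 0.05 by edgeR in either genotype, and DESeq2 and limma-voom also called 0 lower. The median log2 difference over the 33 was 6.73 with the control and 7.51 with the deleted genotype (5.84 and 6.27 with genes at 0 in LN set to their bound), against 0.08 and 0.07 over all genes. With a GC index as a covariate, chosen after seeing the data, 2 and 10 members were called higher, with all genes at 2.39% and 12.0%; the index does not overlap between the tissues, so tissue and this index cannot be told apart.

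Type I collagen, the main fiber of skin, bone and scar, is made of chains from Col1a1 (chromosome 11, 94936224 to 94953042) and Col1a2. Col1a1 stood at 1.27, 1.16 and 4.08 CPM in LN of control mice and 0.227 and 1.13 in LN of MHCII-deleted mice. In tumor it stood at 84.6, 1430 and 905 CPM in control mice and at 105 and 136 in MHCII-deleted mice. Every tumor library lay above every LN library (log2 difference in control mice 8.56 ± 1.12 SE, edgeR adjusted p = 0.000338), and control library 1 lay with the MHCII-deleted tumors. Col1a2 followed the same order in control tumors, with 88.6, 1080 and 630 CPM, and stood at 57.1 and 144 in MHCII-deleted tumors. Its LN levels were 0.121, 0.324 and 0.301 CPM in control and 0.54 and 0.0643 in MHCII-deleted mice (tissue difference in control mice 11.20 ± 1.19 on the log2 scale, edgeR adjusted p = 9.3e-05). The ratio of Col1a1 to Col1a2 per exon length was 1.81, 2.52 and 2.72 in control tumors and 3.48 and 1.79 in MHCII-deleted tumors, and per coding length 0.893 to 1.73 over the 5. No difference between the genotypes was detectable (exact permutation test, two-sided, p = 1.0, where 3 against 2 libraries cannot go below 0.2).

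Col3a1, which forms type III fibers in soft tissue and vessel walls, had the highest level of any collagen per coding length in control tumors, 214 CPM per kilobase, before Col1a1 with 185 and Col1a2 with 145. By exon length Col1a1 came first, with 123 against 95.7 for Col3a1. Col3a1 stood at 238, 1580 and 996 CPM in control tumors and at 101 and 358 in MHCII-deleted tumors, against 0.121, 0.459 and 0.434, and 0 and 0.129, in LN. Tumor exceeded LN in each genotype by a similar log2 difference (11.42 ± 1.05 for control mice, 11.80 ± 1.46 for MHCII-deleted mice, edgeR adjusted p = 3.9e-05 and 0.000193). By limma-voom the calls in MHCII-deleted mice were lost for Col3a1 (adjusted p = 0.121), Col1a1 (0.171) and Col1a2 (0.163). Together Col1a1, Col1a2 and Col3a1 held 62.3, 77.3 and 82.1% of collagen counts in control tumors and 23.7 and 40.1% in MHCII-deleted tumors, 2 ranges that did not overlap. Such a separation of 3 from 2 libraries gives at best an exact two-sided permutation p of 0.2. This share also falls wherever other collagens hold more of the total.

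Type V collagen, which sets fiber width by joining type I fibrils, had the same high libraries for 2 of its 3 chains. Col5a1 stood at 13.5, 112 and 92.0 CPM in control tumors and 14.9 and 29.4 in MHCII-deleted tumors, against 0.182, 0.135 and 0.1 in LN of control mice and 0 in both other LN libraries. Col5a2 stood at 14, 66.1 and 33.4 CPM in control and 7.77 and 13.8 in MHCII-deleted tumors. Col5a2 had no count in any LN library, so it was at least 1240-fold higher in tumor in control mice and at least 243-fold higher in MHCII-deleted mice, against 3 counts over the LN group. Col5a3, the remaining chain, stood apart with 8.31, 20.7 and 45.6 CPM in control and 23.4 and 20.7 in MHCII-deleted tumors, and 0 to 1.54 in LN. Its call in MHCII-deleted mice (edgeR adjusted p = 0.0182) was lost without LN library 1 of that group (0.114) and without the low-count filter (0.0502).

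Col2a1 (chromosome 15, 97975602 to 98004695) encodes the fibrillar collagen of cartilage. It was near 0 in LN, with 0, 0.0539 and 0.0668 CPM in control and 0.114 and 0.0643 in MHCII-deleted mice. Its call in control mice (edgeR adjusted p = 0.000121) was lost by limma-voom (0.059). In tumor it stood at 20.9, 275 and 105 CPM in control mice and at 373 and 272 in MHCII-deleted mice, so the genotypes overlapped only through control library 2. Per coding length it had rank 4 in control tumors (30 CPM per kilobase) and rank 1 in MHCII-deleted tumors (72.3, before Col3a1 with 52.2). It made up 3.17, 5.2 and 3.41% of collagen counts in control tumors and 33.6 and 17.1% in MHCII-deleted tumors. The ratio of Col2a1 to Col1a1 counts was 0.247, 0.192 and 0.116 in control tumors and 3.56 and 2.0 in MHCII-deleted tumors. This ratio was singled out after its values were seen, its groups do not overlap, and the exact two-sided permutation p of 0.2 is the smallest that 3 against 2 libraries can give. Of the collagens that share cartilage with it, Col11a2 stood at 0.0305, 1.75 and 0.249 CPM in control tumors and 10.3 and 5.81 in MHCII-deleted tumors, and was also named after its values were seen. Col11a2 was not called between tumor and LN in either genotype (edgeR adjusted p = 0.704 and 0.123). Col11a1 did not exceed 0.372 CPM and Col27a1 0.71 CPM in any library.

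**Figure D3:**
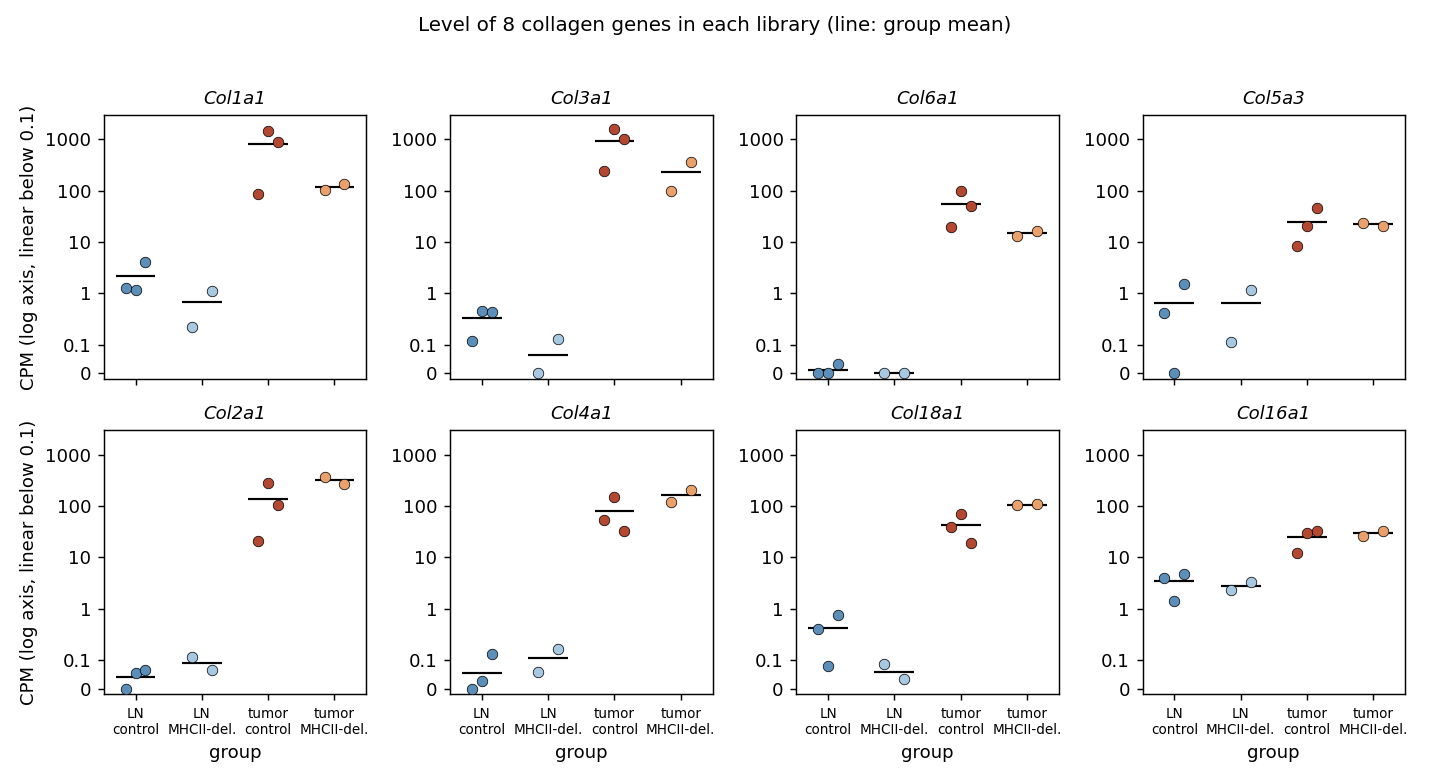
Each point is a library's level in CPM (y axis, logarithmic above 0.1 CPM and linear below) for 8 collagen genes in the 4 groups (x axis), and lines are group means. Col1a1, Col3a1 and Col6a1 have control tumor libraries 2 and 3 above both MHCII-deleted tumors, and Col18a1 has both MHCII-deleted tumors above all control tumors. In LN, Col16a1 stands at 1.43 to 4.78 CPM and Col1a1 at 0.227 to 4.08.

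Type IV collagen is the network of every basement membrane, and its common form combines the chains of Col4a1 and Col4a2. Col4a1 stood at 52.9, 151 and 32.3 CPM in control tumors and 118 and 204 in MHCII-deleted tumors, against 0, 0.027 and 0.134, and 0.0568 and 0.161, in LN. Tumor exceeded LN in control mice by 10.51 ± 0.93 on the log2 scale (edgeR adjusted p = 3.1e-05) and by 10.52 ± 1.07 in MHCII-deleted mice (5.7e-05). Col4a2 stood at 31.1, 78.7 and 14.3 CPM in control and 57.3 and 136 in MHCII-deleted tumors. It had only 1 count over LN of control mice, a tumor to LN ratio of 4170 with a counting interval of 748 to 165000, and was called higher. The ratio of Col4a1 to Col4a2 per exon length was 1.51, 1.7 and 2.0 in control and 1.83 and 1.33 in MHCII-deleted tumors, with no difference between the genotypes detectable (exact permutation p = 0.6, two-sided, smallest possible 0.2).

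The restricted chains of type IV, found in kidney, lung and a few other membranes, were far lower. Col4a5, on chromosome X, had no count in any LN library and stood at 0, 2.15 and 3.27 CPM in control tumors and 10.0 and 7.61 in MHCII-deleted tumors. It was called in both genotypes although control tumor 1 had none, at least 57.4-fold higher in tumor of control mice and at least 193-fold in MHCII-deleted mice. Col4a4 stood at 0, 1.98 and 0.32 CPM in control and 3.83 and 3.98 in MHCII-deleted tumors, with LN at 0.162 to 0.322. Col4a3 stood at 0.489, 0.297 and 0.355, and at 0.74 and 0.829 CPM, with LN at 0.0284 to 0.45. Neither was called against LN, with edgeR adjusted p of 0.305 and 0.287 in control mice.

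Col18a1, a heparan sulfate collagen of vessel and epithelial membranes whose end fragment is endostatin, stood at 38.4, 70.3 and 19.3 CPM in control tumors and 105 and 108 in MHCII-deleted tumors. LN levels were 0.395, 0.0809 and 0.769 CPM for control and 0.0852 and 0.0322 for MHCII-deleted mice. The tissue difference was 6.73 ± 0.67 on the log2 scale for control and 10.70 ± 1.04 for MHCII-deleted mice (edgeR adjusted p = 6.8e-05 and 4.4e-05). The difference of these 2 effects did not pass the test (3.97 ± 1.33, unadjusted p = 0.0146, edgeR adjusted p = 0.0891). Col15a1, its close relative, was measurable in LN, at 1.31, 0.513 and 0.234 CPM in control and 1.39 and 0.611 in MHCII-deleted mice. Its tumor levels, 0.366, 5.91 and 0.994 CPM in control and 4.98 and 2.43 in MHCII-deleted mice, overlapped with LN in control mice and were not called (edgeR adjusted p = 0.189).

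Type VI collagen forms beaded filaments around cells and is a common product of fibroblasts. Col6a1 (chromosome 10, 76708792 to 76726168) stood at 19.3, 98.3 and 49.5 CPM in control tumors and at 13 and 16.7 in MHCII-deleted tumors. Col6a2 stood at 13.5, 96.6 and 50.8, and at 10.5 and 7.87 CPM. Col6a3 stood at 11.2, 98.0 and 42.2, and at 10.5 and 29.7 CPM. All control tumors lay above both MHCII-deleted tumors for Col6a1 and Col6a2, while Col6a3 overlapped. In LN the 3 chains did not exceed 0.546 CPM. Col6a1 had 1 count over LN of control mice (ratio 5480, counting interval 983 to 216000), and Col6a3 had none there and was at least 1650-fold higher in tumor. The ratio of Col6a1 to Col6a2 per exon length was 2.72, 1.93 and 1.85 in control and 2.36 and 4.04 in MHCII-deleted tumors (exact permutation p = 0.4, two-sided, smallest possible 0.2).

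Fibril-associated collagens link fibrils to each other and to other matrix. Col12a1 stood at 2.93, 30.7 and 6.85 CPM in control tumors and 5.88 and 5.81 in MHCII-deleted tumors, and Col14a1 at 3.05, 12.4 and 0.497, and 0.471 and 4.23. Both had LN levels of at most 0.216 CPM and were called in both genotypes. The call of Col14a1 in control mice (edgeR adjusted p = 0.0192) was lost without LN control library 1 (0.0562), LN control library 3 (0.0703) or tumor control library 2 (0.0731). Col9a1, a partner of type II collagen on cartilage fibrils, stood at 0.855, 20 and 13.5 CPM in control tumors and 28.9 and 27.9 in MHCII-deleted tumors. It had 1 count over LN of control mice, which gives a ratio of 1110 with a counting interval of 199 to 43900.

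Col16a1, a minor fibril-associated collagen, was measurable in every library. It stood at 3.98, 1.43 and 4.78 CPM in LN of control mice and 2.3 and 3.28 in LN of MHCII-deleted mice, and at 12.3, 29.2 and 31.9, and 26.1 and 32.5, in tumor. All tumor libraries lay above all LN libraries, with a log2 difference of 2.85 ± 0.48 for control and 3.39 ± 0.61 for MHCII-deleted mice (edgeR adjusted p = 0.00132 and 0.0014). Col23a1, a transmembrane collagen, was chosen after its values were seen because with Col16a1 it led the LN list: per exon length they had ranks 1 and 2 in both LN groups. It stood at 2.43, 3.37 and 3.78 CPM in LN of control mice and 3.64 and 2.99 in LN of MHCII-deleted mice, and at 0.214, 1.92 and 1.31, and 0.538 and 6.09, in tumor. LN lay above tumor in control mice without overlap, yet the difference was not called (edgeR adjusted p = 0.216).

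Of the short-chain network, Col8a1, a collagen of vessel walls, stood at 2.41, 23.0 and 5.5 CPM in control and 7.09 and 4.86 in MHCII-deleted tumors, with no count in LN of control mice (at least 339-fold) and 0.142 and 0 CPM in LN of MHCII-deleted mice. Its call in MHCII-deleted mice (edgeR adjusted p = 0.00998) was lost without LN library 2 of that group (0.0527). Col26a1, of no named class, stood at 0.825, 2.28 and 1.35 CPM in control and 5.28 and 4.61 in MHCII-deleted tumors, with 1 count in all of LN. The remaining tested members, Col7a1, Col9a2, Col9a3, Col20a1, Col10a1 and Col17a1, did not exceed 2.86 CPM in any library.

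The genotype comparison in tumor addresses whether the loss of MHC class II on lymphatic endothelium changes the tumor Tregs. Among collagens, Col6a1 was lower in MHCII-deleted tumors (log2 difference -1.90 ± 0.60, edgeR adjusted p = 0.0445), and 0 members were higher. Of all genes, 13.7% were called lower and 15.0% higher. At an unadjusted p under 0.05, 9 of 33 members differed, 2 of them higher, against 5755 of 13920 genes. By DESeq2, 3 members were lower and 1 higher, with all genes at 15.4% lower and 18.9% higher. By limma-voom 5 of 33 were higher and 0 lower, with all genes at 13.2% higher and 7.72% lower, so the share called higher was near that of all genes. The call of Col6a1 was lost under 14 of the 18 alternatives, with adjusted p up to 0.253, so it rests on a narrow margin.

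By sign alone, the classes lay on different sides of 0, which describes these libraries and is no test. Members of a class were measured in the same libraries and are not replicates. Of 10 fibrillar genes 7 had negative values, with a class median of -1.76, and all 3 type VI chains were negative, with a median of -1.90. All 8 basement membrane genes were positive, with a median of 1.27. The median over all genes was 0.10. Some of these values were smaller than their SE, such as Col4a3 (1.04 ± 1.25), Col15a1 (0.61 ± 1.10) and Col5a3 (-0.17 ± 1.08). Among fibrillar genes, Col1a1 stood at -2.75 ± 0.99 (adjusted p = 0.0637 by edgeR), Col1a2 at -2.57 ± 0.87 (0.0522) and Col3a1 at -2.03 ± 0.76 (0.0709). Col6a2 stood at -2.54 ± 0.90 (edgeR adjusted p = 0.0617). On the positive side were Col11a2 with 3.56 ± 1.42 (0.0867) and Col18a1 with 1.32 ± 0.53 (edgeR adjusted p = 0.0925). None of these passed the test.

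**Figure D4:**
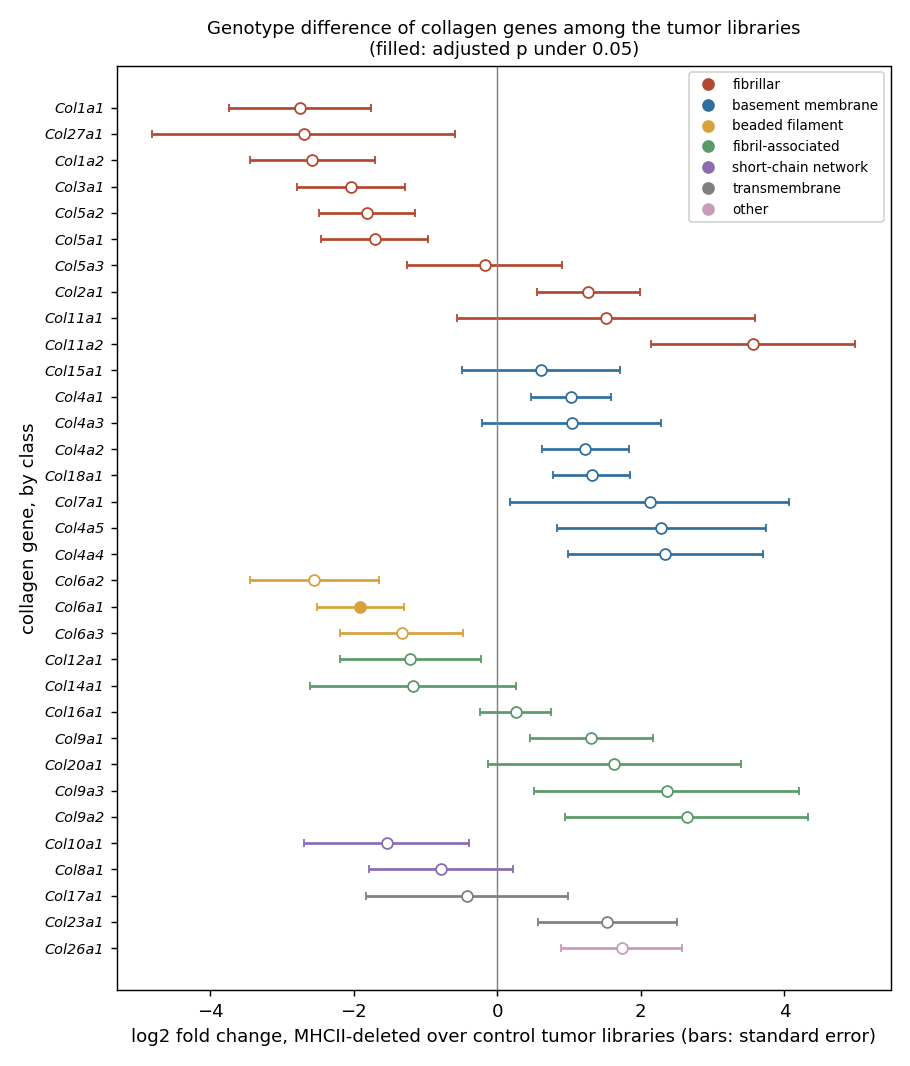
Points give the log2 fold change of MHCII-deleted over control tumors (x axis) with its standard error for the 33 tested collagen genes (y axis, by class), and only Col6a1 is filled, as the one with an adjusted p under 0.05. All 8 basement membrane genes lie right of 0 and all 3 type VI chains left of it, and 7 of 10 fibrillar genes lie left.

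Scaling libraries to the pan-T cell genes in place of TMM raised the values of genes in general: the median over all genes moved from 0.10 to 1.25. Of all genes, 67.9% were then called higher and 0.309% lower, and of the 33 collagens 10 were higher and 0 lower, a smaller share than of all genes. The fibrillar median was then -0.66 (6 of 10 negative), that of type VI -0.78 (3 of 3 negative) and that of basement membrane genes 2.39 (8 of 8 positive). Col6a1 stood at -0.78 (edgeR adjusted p = 0.253). Since this scaling moves all genes by a like amount, it leaves the order of the classes as it was. The changes of sign near 0 (Col5a3 to 0.98, Col8a1 to 0.38, and Col17a1 from -0.42 to a positive value) follow from the shift.

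Single libraries decided which members were called. Without tumor control library 1, 7 collagens were lower and 0 higher: Col1a1, Col1a2, Col3a1, Col5a1, Col5a2, Col6a1 and Col6a2 (all genes 12.3% lower). Without tumor control library 2, 6 were higher and 0 lower: Col2a1, Col4a1, Col4a2, Col4a4, Col11a2 and Col18a1 (all genes 11.7% higher). Of 26 members that reached 1 CPM in a tumor library, 12 were highest in control library 2, 1 in control library 3, 6 in MHCII-deleted library 1 and 7 in MHCII-deleted library 2. All 3 type VI chains and 5 of the 8 fibrillar genes among them were highest in control library 2, as was 1 of 6 basement membrane genes, while 4 of those 6 were highest in MHCII-deleted library 2. From the lowest to the highest tumor library Col1a1 spanned 16.9-fold, Col1a2 18.8-fold, Col2a1 17.9-fold and Col4a1 6.32-fold.

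Markers of other cells also differed between these libraries. Control library 2, with the highest fibrillar sum (4570 CPM), had the highest fibroblast marker sum (516), and control library 3, with the second highest fibrillar sum (2810), had 124, close to library 1 with 127 and a fibrillar sum of 468. Single fibroblast markers differed in their order. Postn, a fibroblast matrix protein, stood at 12.2, 178 and 52.2 CPM in control and 14.8 and 12.8 in MHCII-deleted tumors. Dcn stood at 20.2, 49.1 and 8.13 CPM in control and 5.85 and 16.6 in MHCII-deleted tumors. Lum stood at 4.49, 6.08 and 4.26, and at 2.89 and 2.75 CPM. Control library 3 thus lay above library 1 for Postn and below it for Dcn and Lum, as for Fn1 (44.4 and 33.4 CPM in libraries 1 and 3). The fibroblast sum of 403 in MHCII-deleted library 2 was mostly Fn1, at 337 CPM. Pericyte markers (7 genes, all detected in control tumors, Rgs5 and Notch3 at 0 in MHCII-deleted tumors) summed to 36.8 to 94.7 CPM in control and 92.6 and 323 in MHCII-deleted tumors. Lymphatic endothelial markers (6 of 7 detected in control tumors, Reln at 0, and 7 of 7 in MHCII-deleted tumors) summed to 13.2 to 27.5, and to 33.1 and 266 CPM. Blood endothelial markers, 9 of 9 detected in both groups, summed to 85.8 to 127, and to 106 and 168 CPM. In LN this list summed to 180 to 214 CPM in control and to 193 and 215 in MHCII-deleted mice, above every tumor library. Myeloid markers, 12 of 12 detected in both groups, summed to 125 to 228, and to 432 and 465 CPM. Yet only 1 of 11 tested myeloid genes was called higher in MHCII-deleted tumors, and 0 lower (all genes 15.0% and 13.7%). The median genotype difference of this list was 0.34, against 0.10 over all genes. The sums of basement membrane collagens and of melanoma, pericyte, lymphatic and blood endothelial and myeloid markers were all highest in MHCII-deleted library 2. Within the lists the genes were mixed. Between genotypes in tumor, 2 of 6 tested pericyte genes were called higher and 1 lower, and 1 and 1 of 9 blood endothelial genes. Lymphatic endothelial genes had 2 of 6 higher and 0 lower, and melanoma genes 9 of 10 higher and 0 lower (all genes 15.0% and 13.7%). Control library 2 had the second highest basement membrane sum (311 CPM), the lowest lymphatic endothelial sum (13.2) and a pericyte sum of 53.4. The part of these cells in the collagen values was not tested.

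**Figure D5:**
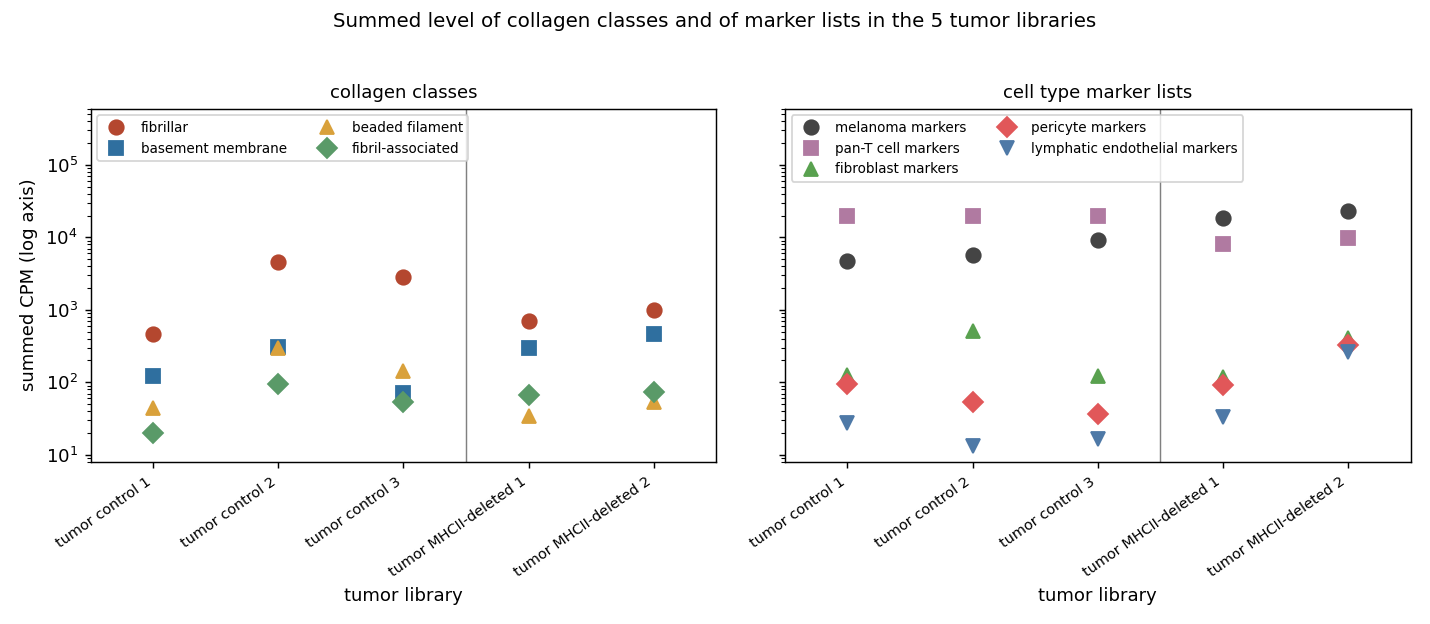
Points give summed CPM (y axis, logarithmic) of 4 collagen classes (left) and 5 cell type marker lists (right) in the 5 tumor libraries (x axis, the grey line parts control from MHCII-deleted). Fibrillar sums run from 468 to 4570 CPM in control tumors, melanoma sums are highest and pan-T cell sums lowest in MHCII-deleted tumors.

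In LN the genotype comparison gave no call for any collagen (edgeR, 0 of 33; all genes 1.07% higher and 0.0359% lower). At an unadjusted p under 0.05, 0 members differed, against 1298 of 13920 genes, and DESeq2 and limma-voom also called 0 members. At these levels little could be detected: Col1a1, one of the better covered, had 207 counts over 3 control libraries and 43 over 2 MHCII-deleted libraries, a log2 difference of -1.69 ± 1.34. Col16a1 differed by -0.28 ± 0.52 and Col23a1 by 0.05 ± 0.97. The interaction, which compares the genotype effect in tumor with that in LN, called 0 of 33 collagens by edgeR, with all genes at 4.14% higher and 6.57% lower. Col18a1 alone had an unadjusted p under 0.05, against 3777 of 13920 genes. DESeq2 called 1 member higher and limma-voom called 0.

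Genes that work on collagens were followed in lists by step. Of 22 genes that modify and fold the chains, 16 were higher and 2 lower in tumor than in LN of control mice (all genes 22.8% and 16.1%). In MHCII-deleted against control tumors 6 were higher and 1 lower (all genes 15.0% and 13.7%). Serpinh1, the collagen-specific chaperone, averaged 0.146 ± 0.105 CPM in control LN and 230 ± 129 in control tumors (SD, n = 3 each), and 493 ± 18.1 in MHCII-deleted tumors (SD, n = 2). Its genotype difference of 1.10 ± 0.43 did not pass (edgeR adjusted p = 0.0837), nor did that of the prolyl hydroxylase P4ha2 (1.64 ± 0.56, 0.0529). Fkbp14, a prolyl isomerase of the same compartment, was higher in MHCII-deleted tumors by 1.52 ± 0.37 (edgeR adjusted p = 0.0239). The folding list had a median genotype difference in tumor of 1.01, against 0.10 over all genes. Genes are named by the tissue comparison, so most of the 6 called higher between genotypes are not named here. The interaction called 3 of the 22 genes higher and 0 lower (all genes 4.14% and 6.57%).

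Of 11 tested genes for propeptide removal and cross-linking, 8 were higher and 1 lower in tumor than in LN of control mice (all genes 22.8% and 16.1%). In MHCII-deleted tumors 3 were higher and 0 lower (all genes 15.0% and 13.7%). Pcolce, which aids the removal of the C-terminal propeptide of fibrillar collagens, rose from 94.9 ± 29.7 CPM (SD, n = 3) in control to 228 ± 5.54 (SD, n = 2) in MHCII-deleted tumors (1.27 ± 0.27, edgeR adjusted p = 0.00729). Loxl2, a cross-linking oxidase, rose by 1.71 ± 0.55 (0.0418), and Loxl3 with 1.42 ± 0.55 did not pass (edgeR adjusted p = 0.0795).

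For the next 3 lists the shares of all genes are 22.8% higher in tumor than in LN of control mice, and 15.0% higher and 13.7% lower in MHCII-deleted tumors, and none of their counts between genotypes exceeded these shares. Of 20 interstitial matrix partners 16 were higher than in LN and 1 was higher in MHCII-deleted tumors, Fbln1 (1.45 ± 0.39, edgeR adjusted p = 0.0201). The list median of -0.93 had the sign of the fibrillar collagens. Of 15 tested basement membrane partners 11 were higher than in LN, and 2 were higher in MHCII-deleted tumors, among them Lamb2, a laminin chain (1.42 ± 0.35, edgeR adjusted p = 0.0148), with a list median of 0.72. Of 12 tested genes of collagen breakdown 9 were higher than in LN, and 1 was lower in MHCII-deleted tumors: Mmp9, a gelatinase, which averaged 26.1 ± 8.15 CPM in control LN and 175 ± 47 in control tumors (SD, n = 3 each) and 61.4 ± 19.7 in MHCII-deleted tumors (SD, n = 2) (-1.51 ± 0.34, edgeR adjusted p = 0.00978).

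Of 7 tested receptors for collagen, 3 were higher and 1 lower in tumor than in LN of control mice (all genes 22.8% and 16.1%), and 2 were higher and 1 lower in MHCII-deleted tumors (15.0% and 13.7%), counts too small to set apart from those shares. Itgb1, the common beta chain of collagen-binding integrins, averaged 1350 ± 194 CPM in control LN and 857 ± 214 in control tumors (SD, n = 3 each; -0.66 ± 0.18, edgeR adjusted p = 0.0184). Itga1, an alpha chain that binds collagen, rose in tumor of control mice by 4.23 ± 0.93 (edgeR adjusted p = 0.00562) and Itga2 by 0.72 ± 0.24 (0.0354). In MHCII-deleted tumors Itga2 was lower (-0.81 ± 0.27, edgeR adjusted p = 0.0466) and Ddr2, a receptor kinase of mesenchymal cells for fibrillar collagen, was higher (2.07 ± 0.54, edgeR adjusted p = 0.0185).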

How the data were processed

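Raw gene counts are what the authors deposited, 1 column per library, keyed by Ensembl gene and not normalized. Per the submitters' processing notes, the tools were CASAVA 1.8.2, STAR 2.4 and featureCounts 1.4.6, with GRCm38. The annotation release and strand setting are not given in the sources used here. Per the labels' protocols, cDNA was amplified from 1 ng RNA and sequenced as single reads of 50 bases. Symbols, positions and coding sequences came from GENCODE M21.

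Genes passing filterByExpr (minimum count 10) were TMM-normalized and fitted as 4 group means over all 10 libraries with edgeR 4.0.16 (glmQLFit, robust) in R 4.3.3, so that all groups share 1 estimate of spread. The standard error is the size of the log2 fold change divided by the square root of F. The script was tested on simulated counts. Alternatives were RLE size factors, DESeq2 1.42.0, limma-voom (limma 3.58.1), no filter, only the groups compared, a replicate block, scaling to pan-T cell genes, each library left out, coding length, and, chosen after seeing the data, a GC index as a covariate.

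The members and lists were chosen with earlier results of these data known. Values in every tumor library are given for members called in a comparison with a group mean of at least 1 CPM and for tested chains of types I, III, IV, VI, XV and XVIII. For some of them LN is given only as a range, a maximum or a count, or for control mice only. From each pathway list, genes were named among the 4 lowest p-values of those called between tumor and LN in control mice.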

Additional observations from a re-analysis of the deposited data

How the results depend on the processing

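Calls between tumor and LN kept their direction under every alternative run, but with a GC index as a covariate (chosen after seeing the data) they fell to 2 for control and 10 for MHCII-deleted mice. Leaving out each library gave 19 to 21 and 17 to 21 calls, with 2546 to 3296 and 2340 to 3439 of all genes called higher. Between genotypes in tumor the count of called collagens was 4 by DESeq2, 5 by limma-voom, 0 without the low-count filter, 0 with only the groups compared, 10 with pan-T cell scaling and 2 with the GC index, and 0 to 7 with a library left out. All genes called higher and lower were 1941 and 1813 without the filter, and 1142 and 1377 with only the groups compared. They were 1769 and 1721 with the GC index, and 1446 to 1973 and 1299 to 1758 with a library left out. For the interaction the count of called collagens was 1 by DESeq2, 1 with pan-T cell scaling and 0 to 1 with a library left out. Over all genes, 1260 were higher and 1227 lower by DESeq2, and 6417 and 20 with pan-T cell scaling. With a library left out, 147 to 869 genes were higher and 380 to 1412 lower. In LN the count of called collagens was 0 throughout. The cause was not tested.

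With the replicate block the counts were 20 and 19 (tissue), 1 (tumor), 0 (LN) and 0 (interaction), and the call in tumor was Col3a1 (-1.68, edgeR adjusted p = 0.0027) in place of Col6a1. All genes called higher and lower with the block were 2880 and 2023 between tissues in control mice, and 3128 and 2609 in MHCII-deleted mice. They were 1524 and 1620 in tumor, 0 and 0 in LN, and 404 and 722 for the interaction. Deviations of same-numbered libraries from their group means correlated at -0.148 to 0.046 over all pairs of groups. Between LN and tumor of the same genotype these correlations were 0.02 to 0.046, and -0.035 to -0.003 for different numbers. Deviations within a group sum to 0, which ties these values together in groups of 2 or 3. The check therefore cannot decide whether the numbers pair the libraries.

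The tumor genotype difference of Col5a3 turned positive by limma-voom (0.18), with the replicate block (0.88) and with pan-T cell scaling (0.98), and ran from -0.59 to 0.61 with a library left out. With pan-T cell scaling Col8a1 was 0.38. With a library left out Col8a1 ran from -1.25 to 0.60, Col12a1 from -1.69 to 0.26, Col14a1 from -3.49 to 0.41 and Col16a1 from -0.06 to 0.50. LN libraries held 371 to 526 collagen counts, which limits what could be detected there.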
